A study of Mus musculus with 32 samples.

Results

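The comparison described here sets neuronal nuclei of the colon against neuronal nuclei of the small intestine (SI) in mice housed at the University of Bern. It rests on 8 of the 32 libraries of the series: 4 from Bern colon and 4 from Bern SI, chosen by their labels alone, with every gene of the table considered. All mice were C57BL/6 and kept under specific pathogen-free conditions, and neither their age nor their sex is used here. Each had received AAV9-CaMKII-EGFPKASH into a vein, an adeno-associated virus that carries EGFP with a nuclear envelope anchor (KASH) under a CaMKII promoter. After 5 weeks the outer muscle with its myenteric plexus was stripped off both segments, nuclei were released, and single intact nuclei were sorted by EGFP. The labels name the EGFP-positive sort neuronal and the rest non-neuronal. The gate therefore holds whichever cells took up the virus and used this promoter. Side by side stand Crick neuronal nuclei (4 colon and 4 SI libraries, mice of the same strain and treatment whose facility is labelled The Francic Crick Institute) and Bern non-neuronal nuclei (4 colon and 4 SI libraries). No label says that libraries came from separate animals, so errors and p-values measure the spread between libraries, which may be technical.

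The myenteric plexus is the layer of enteric neurons between the muscle coats. It holds motor neurons that excite or relax smooth muscle, interneurons, and sensory-type neurons, and it drives peristalsis with little input from the brain. Neurons along the gut share a core of enteric identity genes and differ in the transmitters, channels and transcription factors they use. Interstitial cells of Cajal, which lie in the same layer, are not neurons: they pace the muscle and depend on the receptor tyrosine kinase Kit and the calcium-gated chloride channel Ano1. Because RNA was taken from sorted bulk nuclei, a smaller share of nuclei of a given type and less RNA in each of them cannot be told apart.

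The colon libraries held 2420849 to 3901005 estimated counts and the SI libraries 2394513 to 4581657. Levels are given as CPM (library counts scaled to a common total), and comparisons as log2 fold changes of colon over SI with their standard error (±) and a p adjusted over all genes tested, with 0.05 as threshold. The neuronal label was checked against 20 pan-neuronal genes only, and neurons below stands for the EGFP-positive sort, whichever cells it held. Their summed level was 4946 to 7094 CPM in colon neurons and 6305 to 6859 CPM in SI neurons, against 1132 to 2445 CPM in Bern colon non-neuronal nuclei and 173 to 1248 CPM in Bern SI non-neuronal nuclei. None of the 20 passed between the segments, and their median log2 fold change was 0.06, with -0.01 over all genes. Snap25, a synaptic fusion protein, had 742, 1369, 1403 and 1373 CPM in colon neurons and 1958, 1954, 2087 and 1579.9 CPM in SI neurons, ranges that do not overlap, but it did not pass (-0.67 ± 0.23, adjusted p = 0.104). Ret, the receptor of enteric neuron development, averaged 532 ± 33.1 CPM in colon neurons and 368 ± 42.3 CPM in SI neurons (SD, n = 4 each) and did not pass either (0.49 ± 0.21, adjusted p = 0.199). RNA of mitochondrial origin, which is made outside the nucleus, took 0.423% to 0.598% of counts in colon neurons and 2.75% to 6.82% in SI neurons.

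Between the segments 725 of 17419 genes passed (4.16%), of which 228 were higher (1.31%) and 497 lower (2.85%) in colon neurons. At an unadjusted p under 0.05 there were 3429. Among the 725, the 4 colon and the 4 SI libraries did not overlap for 173 higher and 391 lower genes, where the share over all genes is 3.1% and 4.37% (7.47% in either direction). Falls were the steeper: 148 lower and 26 higher genes had a log2 fold change of at least 5 in size. No count was found for 63 of the lower genes in colon neurons and for 13 of the higher genes in SI neurons. The number of genes that passed depends on the libraries fitted: it was 429 without SI library 4, 190 without SI libraries 1 and 4, and 101 (32 higher, 69 lower) when the 8 libraries were fitted without the Crick ones. DESeq2 called 1660.

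**Figure D1:**
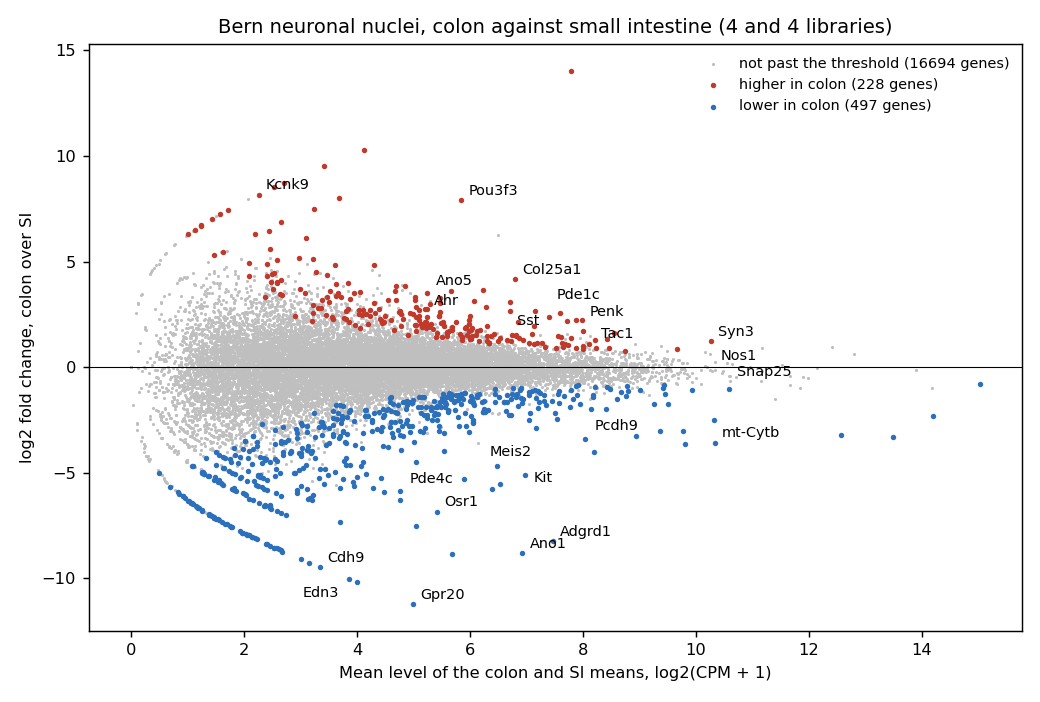
Each point is a gene tested in Bern neuronal nuclei, with the mean of the colon and SI levels as log2(CPM + 1) on the x axis and the log2 fold change of colon over SI on the y axis. Of the 228 higher genes (red), 26 reach a log2 fold change of 5, and of the 497 lower genes (blue), 148 reach -5; grey points did not pass.

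Single libraries weigh on both directions. Of the 228 higher genes, 120 (52.6%) had their highest colon level in colon library 1, compared with 25.7% of all genes tested. The pan-neuronal sum of that library was 4946 CPM, against 6518 to 7094 CPM in the other colon libraries. Its smooth muscle sum was 1463 CPM, against 689 to 948 CPM in the others. With 2420849 estimated counts it was also the smallest colon library. The part of these differences in the rises was not tested. Of the 497 lower genes, 197 (39.6%) were highest in SI library 1 and 185 (37.2%) in SI library 4, compared with 28.7% and 27.6% of all genes. Values are therefore given library by library, in the order 1 to 4, for the genes that carry the result.

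The transcription factor gene Pou3f3 (chromosome 1, 42695768 to 42703176, plus strand, GRCm38) had the steepest rise of the 15 named higher genes. POU domain factors of this class take part in the specification of neurons in the brain. It had 182, 108, 82.2 and 77.3 CPM in colon neurons and 0, 1.40, 0 and 0 CPM in SI neurons. All colon libraries thus carried it, while 1 SI library held a trace. The log2 fold change was 7.91 ± 0.71 (adjusted p = 1.11e-06), and 12.05 without SI library 2, which leaves no count in SI. Ahr (chromosome 12, 35497974 to 35535038, minus strand) encodes the aryl hydrocarbon receptor, a transcription factor that binds compounds from diet and microbes. It had 80.7, 116, 180.0 and 98.6 CPM in colon neurons, against 23.5, 23.2, 4.49 and 1.66 CPM in SI neurons. The lowest colon library stood above the highest SI library, and Ahr rose by 3.12 ± 0.56 (adjusted p = 0.00272). Of the 9 tested genes of its pathway no other passed. The repressor gene Ahrr, a known target of the receptor, had 5.46 to 7.34 CPM in colon neurons and 0 to 3.74 CPM in SI neurons (1.97 ± 0.92, adjusted p = 0.238). Tiparp, a further target, had 9.79 to 14.5 CPM in colon neurons and 13.2 to 27.1 CPM in SI neurons (-0.75 ± 0.49, adjusted p = 0.417).

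Another 5 of the 15 named higher genes kept their call without any 1 library and moved by less than 1.5 times. Col25a1 (chromosome 3, 130131501 to 130599877), a neuronal transmembrane collagen that motor axons need to innervate muscle in mice, had 325, 182, 200.0 and 128 CPM in colon neurons and 7.35, 17.8, 6.36 and 13.3 CPM in SI neurons (4.16 ± 0.46, adjusted p = 1.24e-05). Ano5 (chromosome 7, 51511029 to 51598709) belongs to the anoctamin family and is best known from muscle disease. It had 105, 139, 169 and 137 CPM in colon neurons and 5.64, 15.8, 11.6 and 9.67 CPM in SI neurons (3.64 ± 0.37, adjusted p = 5.25e-06). Slc44a5, a member of the choline transporter-like family, had 195, 84.6, 108 and 157 CPM in colon neurons and 19.6, 22.0, 11.2 and 20.7 CPM in SI neurons (2.84 ± 0.36, adjusted p = 0.000101). Iqcj, which shares a locus with the axon initial segment gene Schip1, averaged 44.7 ± 9.67 CPM in colon neurons and 4.81 ± 2.41 CPM in SI neurons (3.16 ± 0.48, adjusted p = 0.000662). Col7a1, the anchoring fibril collagen, had 14.01 to 46.0 CPM in colon neurons and 1.12 to 3.20 CPM in SI neurons (3.55 ± 0.80, adjusted p = 0.0153).

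The remaining 8 of the 15 genes named by size of rise varied more. Prr5, a subunit of the kinase complex mTORC2, had 165, 59.2, 46.1 and 101 CPM in colon neurons and 7.60, 14.4, 1.87 and 4.69 CPM in SI neurons (3.63 ± 0.63, adjusted p = 0.00199; 4.23 without SI library 2). Ptges2, a prostaglandin E synthase, had 48.6, 11.7, 17.6 and 7.83 CPM in colon neurons and 0.749 to 3.31 CPM in SI neurons (3.52 ± 0.75, adjusted p = 0.0106; 2.73 without colon library 1). The other 6 lost their call without a single library. H2-DMa, which helps load peptides on MHC class II, had 65.0 CPM in colon library 1 and 6.18 to 8.32 CPM in the other colon libraries, against 0 to 1.50 CPM in SI neurons (4.84 ± 1.22, adjusted p = 0.0276). Its adjusted p was 0.126 without colon library 1, 0.0617 without SI library 1 and 0.0643 without SI library 4, and without SI library 2 its fold change was 5.51. Plpp2, a lipid phosphatase, had 149 CPM in colon library 1 and 11.4 to 25.0 CPM in the others, against 0.490 to 9.36 CPM in SI neurons (3.85 ± 0.82, adjusted p = 0.0113). It fell short without colon library 1 (2.42, adjusted p = 0.0748) and reached 4.89 without SI library 3. Lemd2, an inner nuclear membrane protein, had 102 CPM in colon library 1 and 16.1 to 23.3 CPM in the others, against 2.99 to 5.88 CPM in SI neurons (3.16 ± 0.65, adjusted p = 0.00897; 2.12 and 0.0544 without colon library 1). For these 3 genes colon library 1 thus stood far above the rest of its group.

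Dand5, a secreted antagonist of Nodal and BMP ligands, had its peak in colon library 3 (72.0 CPM; 7.80 to 16.6 CPM in the other colon libraries, against 0 to 6.90 CPM in SI neurons; 3.49 ± 0.94, adjusted p = 0.0381). Its call was lost without colon library 3 (2.28, adjusted p = 0.163) and without SI library 1, 2 or 3 (0.0639, 0.0883 and 0.0846), and its fold change was 5.13 without SI library 4. Ajm1, an apical junction gene, had 129.97, 82.1, 80.04 and 22.3 CPM in colon neurons and 3.92, 19.8, 0 and 7.18 CPM in SI neurons (3.26 ± 0.76, adjusted p = 0.018). It missed the threshold without SI library 1 (0.0534) and reached 4.31 without SI library 2. Wnk4, a kinase that regulates chloride cotransporters, had 111, 68.3, 66.0 and 25.2 CPM in colon neurons and 2.94, 5.604, 13.1 and 11.6 CPM in SI neurons (2.98 ± 0.70, adjusted p = 0.0194). It missed the threshold without SI library 1 (0.0536) or 2 (0.0521).

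**Figure D2:**
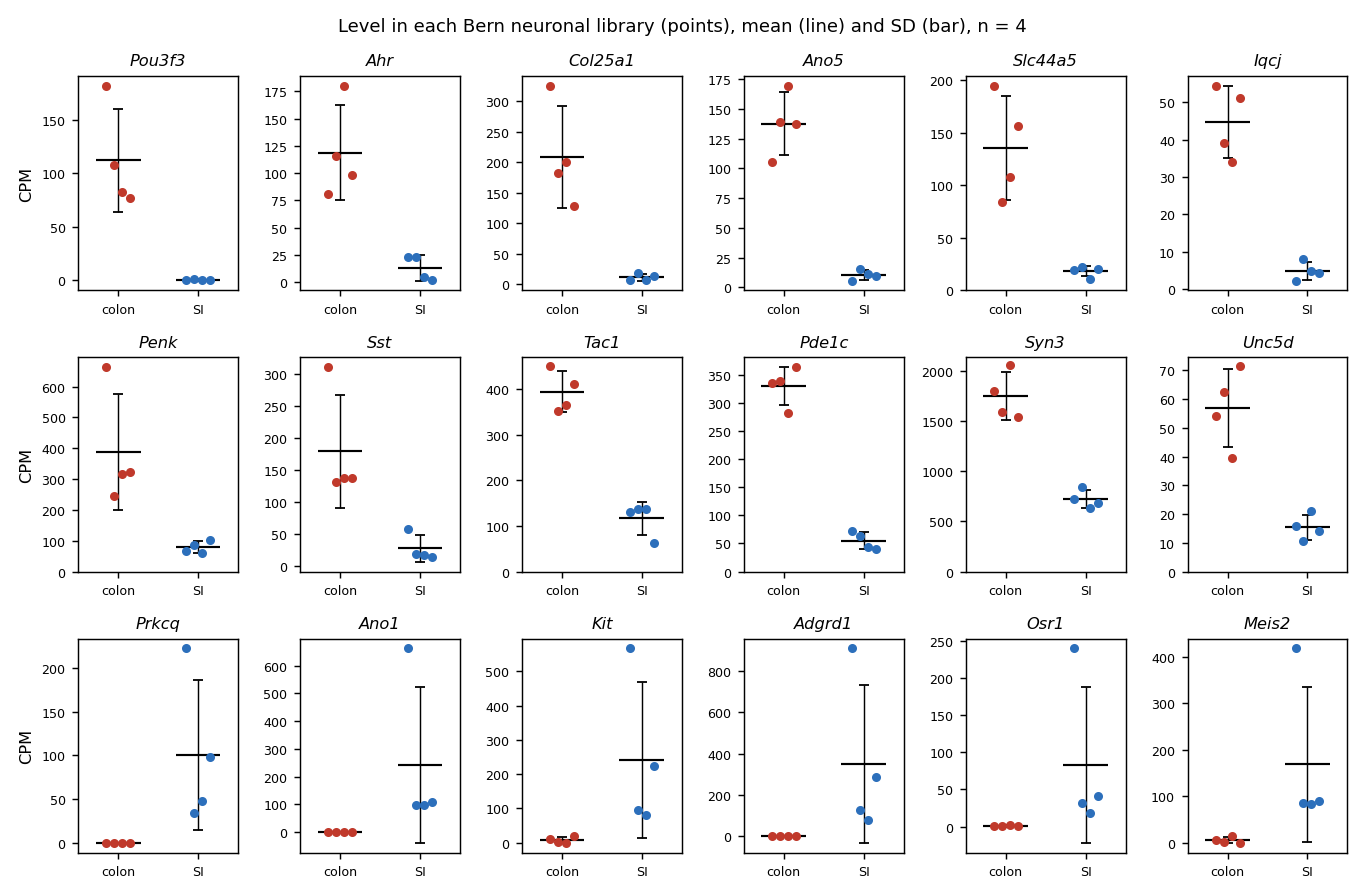
Level in CPM (y axis, linear) of 18 genes in each Bern neuronal library, colon (red) and SI (blue), with the mean as a line and the SD as a bar (n = 4). Colon and SI points do not overlap in any panel; in the bottom row SI library 1, the leftmost blue point, is the highest, with 909.8 CPM for Adgrd1 and 662 CPM for Ano1.

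Several peptide transmitter genes rose. Of 17 neuropeptide precursor genes tested, 4 rose and 1 fell (median 0.39), where 1.31% of all genes rose and 2.85% fell. These shares belong beside the count of every gene list below. A single call in a short list is no result about the list. Penk, the enkephalin precursor, had 665, 244, 317 and 324 CPM in colon neurons and 66.9, 84.9, 59.9 and 104 CPM in SI neurons (2.25 ± 0.36, adjusted p = 0.000938). Sst, the precursor of the inhibitory peptide somatostatin, had 310.3, 130.5, 137 and 137 CPM in colon neurons and 58.6, 18.6, 17.6 and 14.9 CPM in SI neurons (2.67 ± 0.44, adjusted p = 0.00129; 3.34 without SI library 1). Tac1, the precursor of substance P, which excites gut muscle, had 449.8, 351, 365 and 411 CPM in colon neurons and 131, 137, 136 and 63.0 CPM in SI neurons (1.72 ± 0.33, adjusted p = 0.00506). For these 3 peptides no colon library reached down to an SI library, and no single library decided the call. Grp, the gastrin-releasing peptide gene, also rose (2.46 ± 0.67, adjusted p = 0.0391), but not without colon library 4 (1.76, adjusted p = 0.117) or SI library 1, 3 or 4 (0.0729, 0.0731 and 0.0739). The granule protein gene Chgb fell (-1.87 ± 0.48, adjusted p = 0.0316), though its ranges overlapped (6.89 to 41.1 CPM in colon neurons, 40.3 to 129 CPM in SI neurons) and its call was lost without colon library 1, 2 or 3 (0.072, 0.0545 and 0.0667) or SI library 3 (0.102), while it fell by 2.49 without colon library 4. Nos1, Chat and Vip did not pass. Nos1, which makes the relaxing transmitter nitric oxide, had 1395, 1583, 1739 and 1214 CPM in colon neurons and 945, 988, 815 and 1044 CPM in SI neurons (0.60 ± 0.26, adjusted p = 0.205). Chat, the enzyme of acetylcholine synthesis, had 46.4 to 176 CPM in colon neurons and 152 to 332 CPM in SI neurons (-0.87 ± 0.34, adjusted p = 0.157). Vip, a further relaxing peptide, had 28.8 to 181 CPM in colon neurons and 93.1 to 297 CPM in SI neurons (-0.96 ± 0.56, adjusted p = 0.354). Of 7 nitrergic and VIP genes 1 fell (median -0.46): Gucy1a1, a subunit of the nitric oxide receptor, had 76.3, 98.6, 143 and 175 CPM in colon neurons and 196, 289, 228 and 318 CPM in SI neurons (-1.11 ± 0.32, adjusted p = 0.0499). That call was lost without any 1 of 7 libraries, all but colon library 4 (adjusted p of 0.0531 to 0.136). The 9 cholinergic genes had a median of -0.83 with 1 fall, that of the choline transporter gene Slc5a7, at 71.0 to 119 CPM in colon neurons and 175 to 202 CPM in SI neurons (-1.14 ± 0.28, adjusted p = 0.0242). Slc5a7 missed the threshold without colon library 1 (0.0517), colon library 3 (0.0552) or SI library 4 (0.0612).

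Promoter windows of 3 of the genes that rose are printed because they hold the textbook motif of a pathway named here; genes that fell hold such motifs too. They are the 250 bases before the RefSeq start in GRCm38.p6, 5′ to 3′ on the strand of the gene, with motif letters in capitals. For Sst (chr16:23890845-23891094, minus strand) the capitals mark the cyclic AMP response element TGACGTCA, 48 bases before the start. For Tac1 (chr6:7554811-7555060, plus strand) they mark matches to TNGCGTG, the core bound by the aryl hydrocarbon receptor, on either strand, 127 and 78 bases before the start. For Col25a1 (chr3:130180595-130180844, plus strand) they mark ATTTGCAT, the reverse complement of the octamer ATGCAAAT bound by POU factors, 167 bases before the start. The RefSeq start used for Col25a1 lies downstream of the start of the gene span given above (130131501), so this window lies inside that span.
Sst: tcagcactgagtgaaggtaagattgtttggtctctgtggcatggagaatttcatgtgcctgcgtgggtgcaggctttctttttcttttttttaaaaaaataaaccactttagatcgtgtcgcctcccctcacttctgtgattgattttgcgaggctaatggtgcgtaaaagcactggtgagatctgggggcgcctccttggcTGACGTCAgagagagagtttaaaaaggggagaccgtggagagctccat
Tac1: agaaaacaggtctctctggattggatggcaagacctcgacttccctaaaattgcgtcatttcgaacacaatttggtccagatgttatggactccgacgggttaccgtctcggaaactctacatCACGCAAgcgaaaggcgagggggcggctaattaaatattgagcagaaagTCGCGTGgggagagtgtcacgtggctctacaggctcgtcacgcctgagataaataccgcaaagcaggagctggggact
Col25a1: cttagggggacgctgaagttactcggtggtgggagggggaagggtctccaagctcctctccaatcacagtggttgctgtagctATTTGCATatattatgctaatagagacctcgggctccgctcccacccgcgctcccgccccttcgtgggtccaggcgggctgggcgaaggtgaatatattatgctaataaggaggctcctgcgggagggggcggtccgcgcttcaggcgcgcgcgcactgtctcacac
Over all 32851 mouse windows of this length, with both strands searched, 1.55% hold TGACGTCA, 4.1% hold TNGCGTG and 1.6% hold ATGCAAAT. The 3 motifs do not overlap in these windows. Among 112 windows of the genes looked up, 2 hold TGACGTCA (Sst and Chgb, which fell), 8 hold TNGCGTG and 2 hold ATGCAAAT (Col25a1 and Pde1c). Of the 8 genes with TNGCGTG, Tac1, Ptges2, Kcnd3 and Tef rose, Npy2r, Npr1 and Unc5b fell, and Ahrr did not pass. A match is a description of the letters and shows no binding. The table of windows gave 84 of 119 genes looked up, without Ahr and Penk.

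Counts for ion channel and receptor genes, like those of the other lists, stand beside shares of 1.31% higher and 2.85% lower over all genes. Of 40 potassium channel genes 4 rose and none fell (median 0.10). The rise of Kcnip4 was lost without any 1 of 5 libraries. Kcnk9, a background potassium channel, had 9.13, 7.80, 12.4 and 0.979 CPM in colon neurons and no count in SI neurons, at least 38.7-fold higher against the floor of 3 counts over the SI group (adjusted p = 0.0109; at least 30.6-fold without colon library 3). Kcnn3, a calcium-activated potassium channel, had 423, 265, 191 and 256 CPM in colon neurons and 132, 153, 105 and 119.6 CPM in SI neurons (1.12 ± 0.26, adjusted p = 0.0197). It missed the threshold without colon library 1 (0.0611) or SI library 3 (0.0522). Kcnn3 is also on the list of fibroblast and PDGFRA cell markers, of whose 12 tested genes 1 rose and none fell. In Bern non-neuronal nuclei it averaged 297 CPM in colon and 576 CPM in SI, the opposite order. Kcnd3, an A-type channel, averaged 110.5 ± 17.0 CPM in colon neurons and 48.2 ± 10.5 CPM in SI neurons (1.16 ± 0.29, adjusted p = 0.0251), and missed it without SI library 1 (0.0616) or 2 (0.0656). Of 29 sodium, calcium and HCN channel genes only the T-type calcium channel gene Cacna1g passed, with 0 to 8.81 CPM in colon neurons and 24.7 to 58.1 CPM in SI neurons (-3.31 ± 0.80, adjusted p = 0.0227; 0.0513 without colon library 2). Of 27 glutamate and GABA receptor genes 3 fell (median -0.02). The falls of Gabra2 and Glra1 were lost without any 1 of 2 and of 3 libraries. Gria3, an AMPA receptor subunit, had 28.5, 49.99, 35.4 and 13.7 CPM in colon neurons and 100.0, 108, 92.5 and 98.3 CPM in SI neurons (-1.69 ± 0.35, adjusted p = 0.00883). Of 24 peptide receptor genes 2 fell. That of Npy2r was lost without any 1 of 5 libraries. The neuromedin U receptor gene Nmur2 had a trace in 1 colon library (2.52 CPM) and 15.9, 15.2, 10.1 and 34.8 CPM in SI neurons (-4.83 ± 1.03, adjusted p = 0.0109; -9.55 without colon library 2, which leaves no colon count). Of 14 monoamine genes 1 rose (median -0.07), the serotonin receptor gene Htr2b. It had 293, 144, 228 and 194 CPM in colon neurons and 114, 78.9, 89.8 and 143 CPM in SI neurons (0.97 ± 0.27, adjusted p = 0.0439). It lost its call without colon library 1 or 3 (0.112 and 0.0769) or SI library 1, 2 or 3 (0.0748, 0.114 and 0.0988), and it also passed in Crick neurons. The serotonin receptor gene Htr7 had 9.54 to 24.1 CPM in colon neurons and 0.245 to 8.21 CPM in SI neurons and did not pass (2.80 ± 0.81, adjusted p = 0.052). Gpbar1, the membrane bile acid receptor, was the 1 of 9 bile acid and metabolite receptor genes that fell. It had a trace in 1 colon library (0.238 CPM) and 8.33, 11.2, 4.12 and 12.2 CPM in SI neurons (-6.68 ± 1.19, adjusted p = 0.00351; -8.47 without colon library 3, which leaves no colon count).

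Cell adhesion at synapses gave 2 falls among 30 genes (median -0.02). Nlgn1, the postsynaptic neuroligin, had 132, 119.9, 58.0 and 154 CPM in colon neurons and 204, 244, 298 and 405 CPM in SI neurons (-1.35 ± 0.32, adjusted p = 0.0214; 0.0773 without SI library 4). Cntnap2, which clusters potassium channels on axons, had 91.6, 89.9, 85.3 and 106 CPM in colon neurons and 157, 182, 194 and 229 CPM in SI neurons (-1.08 ± 0.26, adjusted p = 0.0251; 0.0761 without SI library 4). The ranges of both genes do not overlap, and both calls rest on SI library 4. None of 9 microbial sensing genes (median -0.44), 14 heat shock genes (median -0.16) and 15 interferon-stimulated genes (median -0.82) passed.

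Release and second messenger genes moved in both directions. Of 31 synaptic release genes 2 rose and 2 fell (median 0.08). The falls, of Cplx2 and Syt9, were lost without any 1 of 3 and of 6 libraries. Syn3, a synapsin that tethers vesicles, had 1794, 1591, 2062 and 1536 CPM in colon neurons and 719.8, 843, 631 and 684 CPM in SI neurons (1.24 ± 0.21, adjusted p = 0.00129). Syt10, a calcium sensor of exocytosis, had 26.7, 4.59, 4.51 and 6.12 CPM in colon neurons and a trace in 1 SI library (6.86 ± 1.14, adjusted p = 0.00129; 5.82 without colon library 1 and 8.63 without SI library 2). Of 33 genes of cyclic nucleotide enzymes 2 rose and 5 fell (median -0.09). The rise of Gucy2g was lost without any 1 of 4 libraries. The falls of Pde2a, Pde3a and Npr1 were lost without any 1 of 2, 4 and 5 libraries. Pde1c, a calmodulin-dependent phosphodiesterase, had 336, 339, 281 and 363 CPM in colon neurons and 71.8, 62.4, 44.2 and 40.04 CPM in SI neurons (2.56 ± 0.27, adjusted p = 7.27e-06). Pde4c, a phosphodiesterase for cyclic AMP, had 0.365, 2.98, 6.65 and 1.22 CPM in colon neurons and 270.3, 42.0, 26.6 and 116 CPM in SI neurons (-5.31 ± 0.76, adjusted p = 0.000346; -4.45 without SI library 1 and -6.16 without colon library 3). Pde1c was thus the higher in colon and Pde4c the higher in SI, with Pde1c at 40.04 CPM or more in every library of both segments.

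Guidance and adhesion genes were also split. Of 43 axon guidance genes 5 rose and 5 fell (median -0.22). Sema3a and Plxna4 rose but lost their call without any 1 of 6 libraries, Sema4d without any 1 of 5 and Sema3e without 1. Epha6 and Plxna1 fell but lost it without any 1 of 5 and of 3 libraries. Unc5d, a netrin receptor, had 54.0, 62.4, 39.4 and 71.4 CPM in colon neurons and 15.9, 10.6, 21.0 and 14.1 CPM in SI neurons (1.85 ± 0.34, adjusted p = 0.00362). Its relative Unc5b went the other way, with 0, 0.229, 0 and 1.22 CPM in colon neurons and 20.3, 4.00, 21.0 and 5.25 CPM in SI neurons (-4.99 ± 1.07, adjusted p = 0.0116; -6.85 without colon library 4). Epha4, an ephrin receptor, had 5.48, 8.94, 8.55 and 9.05 CPM in colon neurons and 32.8, 47.6, 50.2 and 63.2 CPM in SI neurons (-2.63 ± 0.41, adjusted p = 0.000681). The semaphorin gene Sema5a had 0 to 12.2 CPM in colon neurons and 41.9 to 76.0 CPM in SI neurons (-3.56 ± 0.76, adjusted p = 0.0106; -4.50 without colon library 4). Of 20 cadherin genes, which mediate homophilic adhesion, 1 rose and 5 fell (median -0.61). The rise of Pcdh19 was lost without any 1 of 5 libraries, and the fall of Pcdh7 without 1. Cdh9 had no count in colon neurons and 37.7, 17.2, 8.24 and 9.67 CPM in SI neurons, at least 93.5-fold lower in colon (adjusted p = 0.000153; at least 60.1-fold without SI library 1). Pcdh9 had 57.7, 188, 99.3 and 213 CPM in colon neurons and 612, 504, 497 and 525 CPM in SI neurons (-1.97 ± 0.32, adjusted p = 0.00115). Pcdh17 had 19.0 to 66.0 CPM in colon neurons and 120.3 to 480.1 CPM in SI neurons (-2.52 ± 0.45, adjusted p = 0.00275; -1.84 without SI library 1). Cdh6 had 1.095 to 7.57 CPM in colon neurons and 9.11 to 29.4 CPM in SI neurons (-2.63 ± 0.59, adjusted p = 0.0154; -3.39 without colon library 2).

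**Figure D3:**
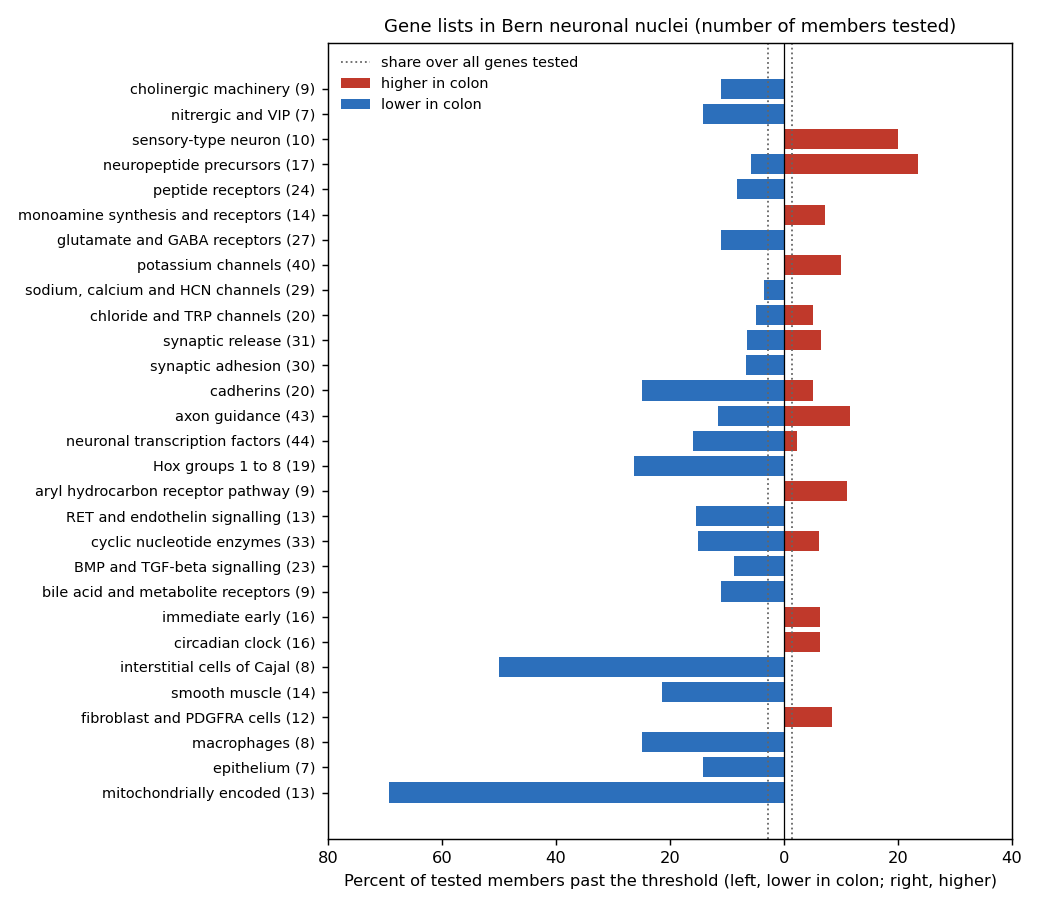
Percent of the tested members of each gene list that passed, lower in colon to the left and higher in colon to the right, with the number tested in brackets. Dotted lines mark the shares over all genes, 2.85% lower and 1.31% higher; lists with fewer than 7 tested members or none that passed are left out.

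Among 44 neuronal transcription factor genes 1 rose, Pou3f3, and 7 fell (median -0.43). The falls of Pou2f2 and Nfia were each lost without any 1 of 4 libraries. Osr1, a zinc finger factor of mesoderm development, had 0.365, 0.229, 1.90 and 0.245 CPM in colon neurons and 239.7, 32.02, 18.7 and 40.9 CPM in SI neurons (-6.85 ± 0.86, adjusted p = 7.83e-05; -5.45 without SI library 1 and -8.17 without colon library 3). Meis2, a homeodomain cofactor of Hox proteins, had 6.21, 2.98, 15.9 and 1.22 CPM in colon neurons and 418, 85.1, 83.9 and 89.5 CPM in SI neurons (-4.70 ± 0.71, adjusted p = 0.000621; -3.76 without SI library 1 and -5.70 without colon library 3). SI library 1 was the highest for both genes. In Bern non-neuronal nuclei Osr1 averaged 42.2 ± 41.0 CPM in colon and 123 ± 80.7 CPM in SI, against 82.8 CPM in SI neurons. A place on this list therefore does not mean that the RNA came from neurons. Tcf7l2, the nuclear effector of Wnt signals, had 21.2 to 47.0 CPM in colon neurons and 123 to 277 CPM in SI neurons (-2.28 ± 0.38, adjusted p = 0.00149). Satb1, a chromatin organiser, had 34.7 to 58.0 CPM in colon neurons and 111 to 144 CPM in SI neurons (-1.41 ± 0.27, adjusted p = 0.00579). The Hox paralogue groups 1 to 8 encode positional identity from head to tail. Of their 19 tested genes 5 fell (median -1.17). Hoxc4 lost its call without any 1 of 7 libraries, Hoxa5 without any 1 of 4 and Hoxc6 without 1. Hoxc8 had no count in colon neurons and 19.6, 6.81, 1.12 and 1.93 CPM in SI neurons, at least 37.8-fold lower in colon (adjusted p = 0.00777; at least 16.9-fold without SI library 1). Hoxc5 had no count in colon neurons and 5.39, 5.604, 3.37 and 0.276 CPM in SI neurons, at least 18.8-fold lower (adjusted p = 0.0149; at least 15.5-fold without SI library 2). Signalling genes that fell include Spry1, a brake on receptor tyrosine kinases, at 0.475 to 4.59 CPM in colon neurons and 9.67 to 32.4 CPM in SI neurons (-3.15 ± 0.69, adjusted p = 0.0124; -3.78 without colon library 2). Smad7, the inhibitory SMAD, had no count in colon neurons and 0.735, 23.2, 11.6 and 2.76 CPM in SI neurons, at least 49.2-fold lower (adjusted p = 0.00373; at least 25.8-fold without SI library 2).

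Genes of the interstitial cells of Cajal were among the steepest falls. Of 8 markers 4 fell (median -4.29). Ano1 (chromosome 7, 144588549 to 144751974, minus strand) had 0.365, 1.38, 0 and 0.245 CPM in colon neurons and 662, 96.9, 95.8 and 109 CPM in SI neurons (-8.82 ± 0.84, adjusted p = 1.89e-06; -7.59 without SI library 1 and -10.19 without colon library 2). Kit (chromosome 5, 75574916 to 75656722, plus strand) had 9.86, 0.917, 0.238 and 18.1 CPM in colon neurons and 567, 95.7, 79.7 and 223 CPM in SI neurons (-5.09 ± 0.84, adjusted p = 0.00129; -4.25 without SI library 1 and -6.21 without colon library 4). Prkcq, a protein kinase C of T cells and of these pacemaker cells, had 0.365, 0.459, 0 and 0 CPM in colon neurons and 222, 34.4, 47.5 and 98.3 CPM in SI neurons (-8.86 ± 0.85, adjusted p = 1.89e-06; -8.14 without SI library 1 and -9.76 without colon library 2). Gpr20, an orphan receptor, had no count in colon neurons and 153, 23.6, 20.2 and 49.7 CPM in SI neurons, at least 316-fold lower in colon (adjusted p = 0.000511; at least 160-fold without SI library 1). Of the other 4 markers, Etv1, which enteric neurons also express, had 292 to 433 CPM in colon neurons and 416 to 746 CPM in SI neurons (adjusted p = 0.249), and Thbs4, Cd34 and Hcn4 were at 20.1 CPM or less in every Bern neuronal library. Etv1 thus supplied most of the summed marker level in colon neurons, 307 to 466 CPM, against 666 to 2358 CPM in SI neurons. SI library 1 stood highest with 2358 CPM, and SI libraries 2, 3 and 4 had 689, 666 and 959 CPM. Bern SI means of Kit, Ano1 and Prkcq were 241, 241 and 101 CPM in neuronal and 183, 186 and 28.3 CPM in non-neuronal nuclei. Gpr20 had 61.6 and 74.5 CPM. In Crick SI neurons Kit, Ano1, Prkcq and Gpr20 averaged 432, 379, 155 and 84.2 CPM. Crick SI non-neuronal nuclei had 127, 200, 31.8 and 56.4 CPM. The name neuronal thus does not tell which cells these transcripts came from, and this was not tested.

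The other genes named by size of fall followed the same libraries. Of the 15, 14 were highest in SI library 1, and mt-Co2 in SI library 4. Adgrd1, an adhesion G protein-coupled receptor, had 0.730, 0.459, 2.14 and 1.22 CPM in colon neurons and 909.8, 127, 75.6 and 287 CPM in SI neurons (-8.23 ± 0.73, adjusted p = 1.11e-06; -7.16 without SI library 1). Edn3, the ligand of the endothelin receptor that enteric progenitors need, had no count in colon neurons and 71.3, 3.40, 0.749 and 32.6 CPM in SI neurons, at least 139-fold lower (adjusted p = 0.00139; at least 62.9-fold without SI library 1). The long noncoding RNA Fendrr, transcribed beside Foxf1 in mesenchyme, had 0.365 to 0.979 CPM in colon neurons and 13.6 to 119 CPM in SI neurons (-6.31 ± 0.72, adjusted p = 1.75e-05; -5.51 without SI library 1). Entpd1, which breaks down extracellular ATP, had 0 to 2.06 CPM in colon neurons and 8.01 to 53.7 CPM in SI neurons (-5.46 ± 0.96, adjusted p = 0.00218; -7.89 without colon library 2). Mdfic, a transcriptional regulator, fell by 5.87 on the log2 scale (± 0.86, adjusted p = 0.000509; -4.79 without SI library 1), and the exchange factor gene Arhgef5 by 5.25 (± 0.86, adjusted p = 0.00112; -3.81 without SI library 1). Without SI libraries 1 and 4, 13 of the 15 lower and 8 of the 15 higher genes still passed.

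Mitochondrially encoded and muscle transcripts were compared next. Of 13 mitochondrially encoded genes 9 fell and none rose (median -3.28). In Crick neurons 8 of the 13 fell (median -3.37). RNA of mitochondrial origin took 3.49% to 7.44% of counts in Bern colon and 11.1% to 12.9% in Bern SI non-neuronal nuclei. The order of the segments was thus the same outside the neuronal gate. The cytochrome b gene mt-Cytb had 181, 150.0, 195 and 297 CPM in colon neurons and 1254, 1445, 2299.9 and 4500.3 CPM in SI neurons (-3.58 ± 0.54, adjusted p = 0.000576). The NADH dehydrogenase gene mt-Nd1 had 81.8, 92.6, 107 and 94.9 CPM in colon neurons and 613, 539.6, 770.0 and 1608 CPM in SI neurons (-3.28 ± 0.53, adjusted p = 0.00108). The cytochrome oxidase gene mt-Co2 had 18.3 CPM in colon library 1 and no count in the others, against 40.03 to 477 CPM in SI neurons (-5.51 ± 1.54, adjusted p = 0.0447). Its call was lost (adjusted p of 0.0544 to 0.133) without colon library 2, 3 or 4 or SI library 1, 3 or 4; without colon library 1 no colon count is left. Of 14 smooth muscle genes 3 fell (median -0.06), among them Cald1, the actin-binding caldesmon, with 20.8, 30.5, 38.0 and 58.5 CPM in colon neurons and 299, 123, 113 and 160.4 CPM in SI neurons (-2.26 ± 0.36, adjusted p = 0.00108). Mylk and Smtn also fell but lost their call without any 1 of 6 and of 4 libraries. The summed smooth muscle level was 689 to 1463 CPM in colon neurons and 917 to 1980 CPM in SI neurons, overlapping ranges. Enteric glia genes did not pass (0 of 6 tested, 15.9 to 33.6 CPM in sum in colon neurons and 22.4 to 40.2 CPM in SI neurons), and 18 cytosolic ribosomal protein genes did not either (median 0.26). Among 8 macrophage genes 2 fell (median -2.53), among them Ptprc, the leukocyte phosphatase CD45. It had 0, 0, 0 and 0.245 CPM in colon neurons and 0.490, 0, 10.5 and 19.1 CPM in SI neurons (-6.42 ± 1.54, adjusted p = 0.0225; 0.0697 without SI library 4). The part that mitochondrial, muscle or pacemaker cell RNA has in the other falls was not tested; with the mitochondrial genes removed before scaling 694 genes passed.

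Crick neurons gave the same contrast in other libraries, which share the filter and the estimate of spread with the Bern ones. In them 159 genes passed (0.913%), 58 higher (0.333%) and 101 lower (0.58%) in colon; 81 to 96 passed without Crick colon library 1, 2 or 3 or Crick SI library 1 or 2. Of the 228 genes higher in Bern colon neurons, 197 had a Crick fold change above 0 (49.8% of all genes did), and 37 passed in the same direction. Of the 497 lower genes, 434 had one below 0 (50.2% of all genes), and 80 passed in the same direction. The 117 shared genes are 16.1% of the Bern list and 73.6% of the Crick list, and no gene passed in opposite directions. Sizes were smaller in Crick: the median log2 fold change of the higher genes was 2.37 in Bern and 0.86 in Crick, and that of the lower genes -3.25 in Bern and -0.99 in Crick. The Bern medians are those of genes picked by the Bern test, so the comparison of sizes favours Bern.

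Among the named genes, 12 of the 15 lower and 7 of the 15 higher passed in Crick. Pou3f3 averaged 95.8 ± 12.2 CPM in Crick colon neurons and 1.50 ± 0.637 CPM in Crick SI neurons (6.02 ± 0.62, adjusted p = 5.93e-06). Kit averaged 6.49 ± 5.75 CPM in Crick colon neurons and 432 ± 91.8 CPM in Crick SI neurons (-6.02 ± 0.87, adjusted p = 0.000393). Another 7 of the higher genes had a Crick fold change of less than 1 in size: H2-DMa (0.05), Plpp2 (0.19), Prr5 (0.18), Ptges2 (0.23), Dand5 (0.19), Ajm1 (-0.61) and Lemd2 (-0.52). Prr5, for example, averaged 92.8 ± 53.7 CPM in Bern colon neurons and 7.14 ± 5.38 CPM in those of Bern SI, against 11.8 ± 8.44 CPM in Crick colon neurons and 10.4 ± 5.04 CPM in Crick SI neurons. The test of the difference between the facilities did not pass for any of these 7 (adjusted p of 0.373 to 0.695). Over all genes it passed for 1 (0.00574%; 1132 at an unadjusted p under 0.05, and 35 by DESeq2), the identifier ENSMUSG00000092267, which has no symbol in the annotation used. No gene passed without Crick SI library 4, and 3 and 2 passed without Bern colon libraries 1 and 2.

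**Figure D4:**
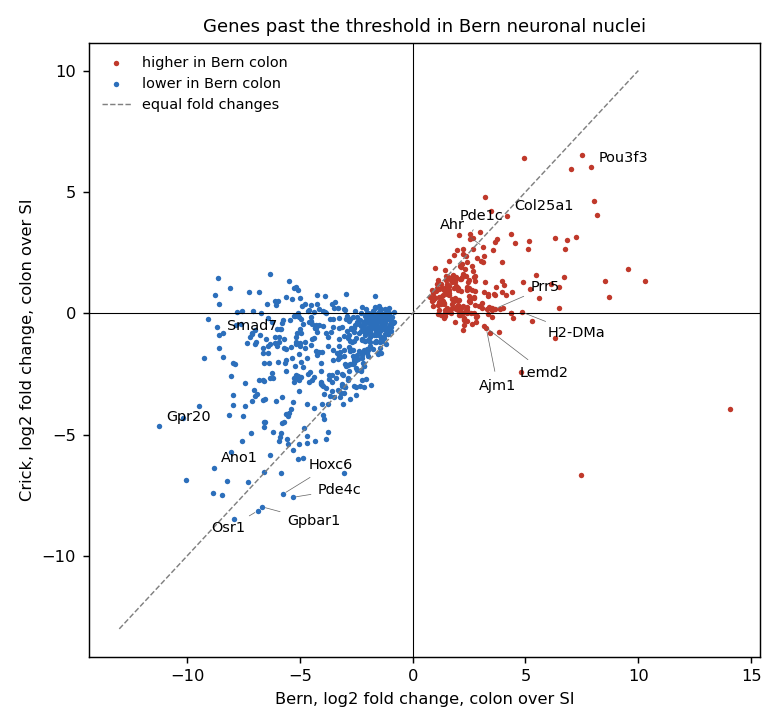
Log2 fold change of colon over SI in Bern (x axis) and Crick neuronal nuclei (y axis) for the 725 genes that passed in Bern, higher (red) or lower (blue) in Bern colon. Of the red points 197 lie above 0 on the y axis and of the blue points 434 lie below it. The dashed line marks equal fold changes, and H2-DMa, Prr5, Lemd2 and Ajm1 lie within 1 of 0 in Crick.

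Bern non-neuronal nuclei show which segment differences lie outside the EGFP-positive gate. Outside the gate, 685 of 17619 tested genes differed (3.89%): 536 were higher (3.04%) and 149 lower (0.846%) in colon (443 without SI non-neuronal library 2). Neuronal RNA is unevenly spread in these libraries, with pan-neuronal sums of 1132 to 2445 CPM in colon and 173 to 1248 CPM in SI non-neuronal nuclei, and its part in the differences was not tested. Of the genes higher in colon neurons, 37 of the 218 tested were also higher in colon non-neuronal nuclei and 3 were lower. Of the genes lower in colon neurons, 32 of the 459 tested were also lower and 7 were higher. The difference between the segment effects of the sorts passed for 155 genes (0.88%), 19 above (0.108%) and 136 below 0 (0.772%). With 3 non-neuronal libraries of high pan-neuronal sum left out (colon 1 and 2, SI 1), 306 passed. Without SI non-neuronal library 1 alone 432 passed, and without any 1 of the 8 neuronal libraries 77 to 102. The median of this difference over all genes was -0.20, so signs are best read relative to it.

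This difference passed for 8 of the 15 named lower genes and for none of the 15 higher ones. The genes were picked by the size of the neuronal contrast, which is a part of this difference, so the choice favours passing. Of the 15 named higher genes 5 were also higher in colon non-neuronal nuclei, where 3.04% of all genes were. They are Pou3f3 (6.47, adjusted p = 0.00313), Slc44a5 (6.38, 0.000245), Iqcj (5.67, 0.0276), Prr5 (4.99, 0.0212) and Col25a1 (3.50, 0.0425). Their rise is thus not particular to the EGFP-positive gate. The part of neuronal RNA in it was not tested. Ano1 averaged 0.496 ± 0.606 CPM in colon neurons and 241 ± 281 CPM in SI neurons, but 120.5 ± 30.2 CPM in colon and 186 ± 171 CPM in SI non-neuronal nuclei (difference of effects -8.07, adjusted p = 0.000769). Adgrd1 averaged 72.6 ± 42.9 CPM in colon and 209 ± 55.0 CPM in SI non-neuronal nuclei (difference -6.57, adjusted p = 0.000769). Prkcq averaged 24.2 ± 17.3 CPM in colon and 28.3 ± 21.1 CPM in SI non-neuronal nuclei (difference -8.44, adjusted p = 0.00276). The colon wall thus held these transcripts in EGFP-negative nuclei, while its EGFP-positive nuclei had almost none. Fendrr averaged 303 ± 85.0 CPM in colon and 565 ± 91.5 CPM in SI non-neuronal nuclei, both above its SI neuronal mean of 51.8 CPM. Sst passed too, with the difference below 0 (-5.29, adjusted p = 0.011): it averaged 126 ± 31.3 CPM in colon and 0.476 ± 0.767 CPM in SI non-neuronal nuclei, so its segment contrast was the wider outside the neuronal gate. The non-neuronal libraries also differed in summed epithelial markers, 1513 to 12547 CPM in colon and 447 to 973 CPM in SI. The part of epithelial or neuronal RNA in the Sst contrast was not tested. Pde1c had opposite orders, 329.8 ± 34.5 CPM in neurons of the colon and 54.6 ± 15.04 CPM in neurons of the SI, but 68.2 ± 59.7 CPM in colon and 225 ± 169.9 CPM in SI non-neuronal nuclei (difference of effects 4.44, adjusted p = 0.00449).

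**Figure D5:**
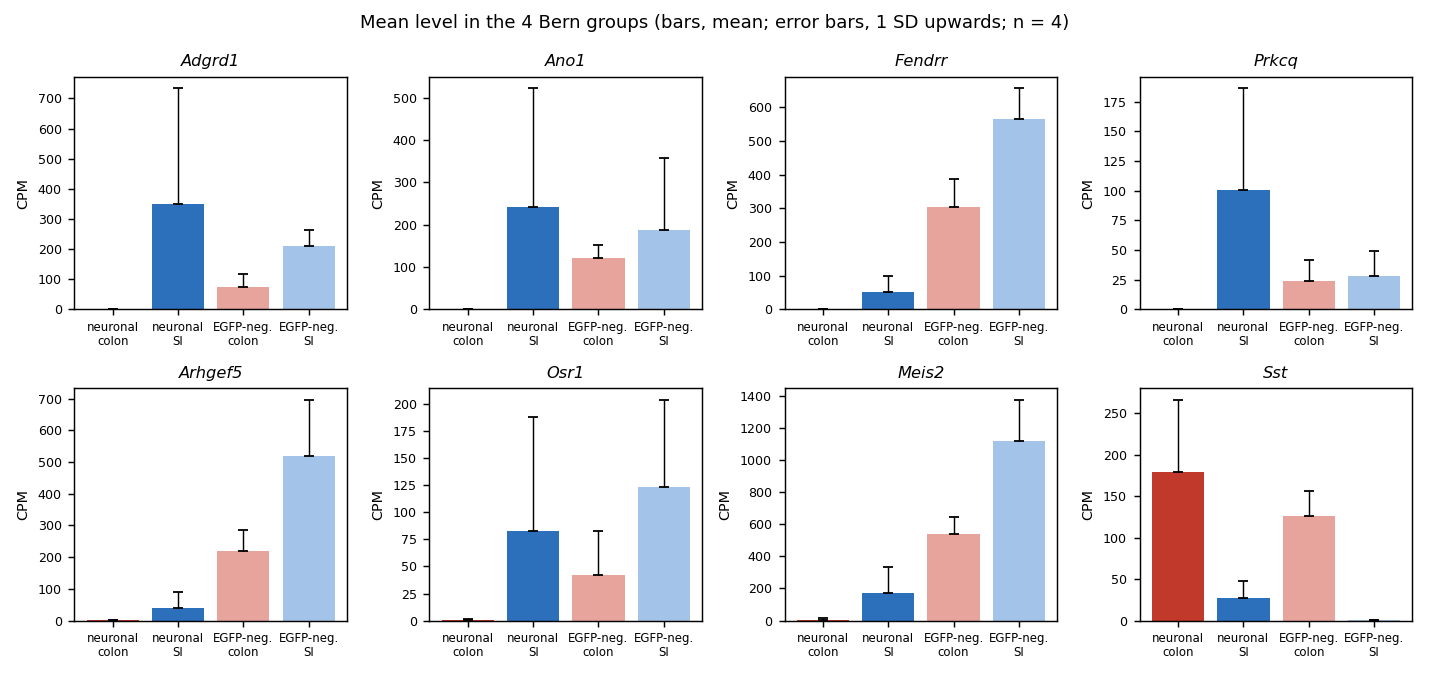
Mean level in CPM (y axis, from 0) of 8 genes in Bern colon and SI neuronal nuclei and in Bern colon and SI non-neuronal (EGFP-negative) nuclei, with 1 SD upwards (n = 4). Adgrd1, Ano1, Fendrr, Prkcq, Arhgef5, Osr1 and Meis2 have their lowest mean in colon neuronal nuclei, 6.58 CPM or less, and Sst has its lowest in SI non-neuronal nuclei, 0.476 CPM.

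The sorts were also compared in Crick, whose neuronal libraries were part of the fit that gave the Bern calls. Of the 497 lower genes, 203 (40.8%) had a higher mean in neuronal than in non-neuronal nuclei of Crick SI, where 50.2% of all genes did. Of the 228 higher genes, 164 (71.9%) had a higher mean in neuronal than in non-neuronal nuclei of Crick colon, where 49.8% of all genes did. Protein-coding genes made up 153 (67.1%) of the higher and 412 (82.9%) of the lower genes and 74.7% of all genes tested. Their median genomic span was 37.1 kb for the higher, 53.1 kb for the lower and 27 kb for all tested protein-coding genes.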

How the data were processed

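Nuclear RNA was amplified to cDNA (Ovation RNA-Seq System V2) and sequenced as single ends, per the labels' protocols. What the authors deposited is a gene by library matrix of expected counts. DESeq2 1.10.1, STAR 2.5.2 and RSEM 1.3.0 and the build GRCm38 are listed, without order or roles, in the submitters' processing notes. The strand setting of the counting is not given in the sources used here. Of the values 10.8% were not whole; all were rounded. GENCODE M21 gave symbols and GRCm38 coordinates for 51719 of 51912 identifiers and left 193 unmatched. Of 119 genes of the lists and the naming rule, 74 overlap another annotated gene, 51 of them one on the opposite strand, so reads of such pairs, and of mitochondrial genes and their nuclear copies, may be misassigned.

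edgeR 4.0.16 (R 4.3.3) fitted group means over 16 libraries (TMM, filterByExpr, quasi-likelihood F test, Benjamini-Hochberg, threshold 0.05): the 4 neuronal groups for both facilities and their difference, and the 4 Bern groups for the non-neuronal contrast and the difference between sorts. The SE is the fold change divided by the root of the F statistic. CPM uses TMM sizes over all 32 libraries. A count of 0 in all 4 libraries allows up to 0.195 CPM in Bern colon or SI neurons (3 counts over the group); floors cover counting error only, as reads carry no molecular identifiers. On simulated counts over 17419 genes for the Bern neuronal contrast, 60% of genes changed 4-fold, 84% of those changed 8-fold and 98% of those changed 16-fold were recovered (50 genes each), with 6 false calls. Counts were drawn for each gene on its own, so shifts shared by many genes of a library were not simulated. The rates and the number of false calls may therefore not hold for the real libraries.

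Named genes are the 15 per direction with the largest fold change among those that passed, with a mean of at least 20 CPM in the higher group, no overlap of libraries and a symbol that is not a predicted one, plus the 4 members of each list with the smallest p; further list members were picked after their values were seen. Of the named genes, 2 are not reported here. The members and lists were chosen with earlier results of these data known. Alternatives were limma-voom (limma 3.58.1), DESeq2 1.42.0, RLE scaling, no filter, thinning to equal depth, removal of mitochondrial genes, a replicate block, other sets of libraries and each library left out.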

Additional observations from a re-analysis of the deposited data

Results flagged for a closer look

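In 11 of 65 groups of 4 libraries, 1 library stood farther from the others than Dixon's 95% limit for 4 values. That limit is passed by about 5% of groups of normally distributed values. Most groups here are CPM of genes picked for large fold changes in these same libraries, so 5% is no background for the count. Among the genes that rose, H2-DMa had 65 CPM, Plpp2 149 CPM and Lemd2 102 CPM in colon library 1, and Dand5 had 72 CPM in colon library 3. Pou3f3 had 1.4 CPM in SI library 2 and 0 in the other SI libraries. Among the genes that fell, SI library 1 stood apart for Ano1 (662 CPM), Osr1 (240 CPM), Mdfic (133 CPM) and Arhgef5 (116 CPM). In colon neurons Osr1 had 1.9 CPM in library 3 and mt-Co2 had 18.3 CPM in library 1.

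The segment effect differed between neuronal and non-neuronal nuclei, by the test of the difference itself in edgeR, for 8 named genes, of which 6 are given here, each with the lower effect in neuronal nuclei. They were named by the neuronal contrast, which is a part of that difference, so the choice favours passing. The adjusted p was 0.000769 for Ano1, 0.000769 for Adgrd1, 0.000786 for Fendrr, 0.00276 for Prkcq, 0.0321 for Arhgef5 and 0.0462 for Osr1. Between the facilities it differed for ENSMUSG00000092267 (adjusted p = 0.00715).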

How the results depend on the processing

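The 725 genes of the Bern neuronal contrast became 1660 with DESeq2, 1378 without a filter on low counts, 384 with the replicate block (334 shared), 101 with only the 8 libraries of the contrast (99 shared) and 190 without SI libraries 1 and 4, a choice made after seeing the data; leaving out 1 library at a time gave 429 to 916. The share of higher genes, 228 of 725, was 696 of 1660 with DESeq2, 581 of 1378 without a filter, 98 of 520 with all 32 libraries in 1 fit and 34 of 190 without SI libraries 1 and 4. The Crick count of 159 became 363 with DESeq2, 253 with limma-voom, 297 without a filter and 100 with the replicate block, and 81 to 132 with 1 library left out. The facility difference, 1 gene, became 35 with DESeq2, 2 with limma-voom, 92 without a filter and 0 after thinning to equal depth, and 0 to 3 with 1 library left out. The non-neuronal count of 685 became 1683 with DESeq2, 1286 without a filter and 141 with its 8 libraries alone, and 443 to 940 with 1 library left out. The sort difference, 155 genes, became 721 with DESeq2, 657 without a filter and 306 without the 3 non-neuronal libraries of highest pan-neuronal sum (chosen after seeing the data), and 77 to 432 with 1 library left out. The cause of these shifts was not tested. The labels do not say whether equal replicate numbers pair the Bern libraries. Colon and SI deviations with the same number correlated at 0.04, 0.04, -0.01 and -0.01, which cannot show whether they share an animal. Of the 30 named genes, 18 passed under every alternative, and of 567 pairs of gene and alternative 519 still passed and 0 changed direction. These 30 were picked for large fold changes without overlap in these same libraries, so the choice favours passing and does not stand for all 725. For the Bern neuronal contrast at this depth, most 4-fold changes, and nearly all 16-fold ones, were recovered on simulated counts, so smaller changes may go uncalled. For the Bern non-neuronal contrast 16% of genes changed 4-fold, 56% of those changed 8-fold and 68% of those changed 16-fold were recovered. Changed genes were drawn only from those above a minimum mean level, so recovery at lower levels was not simulated. Shifts shared by many genes of a library were not simulated either, so these rates may not hold for the real libraries.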
